A study of Mus musculus with 14 samples.

Results

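Brown adipose tissue (BAT) of mice that lack CLSTN3B in adipocytes (AdC3KO) was compared with BAT of wild-type mice (WT) after 6 h in the cold. The members are the 4 AdC3KO and 4 WT libraries labelled 4 °C, chosen by their column names in the deposited count table, and they are 8 of the 14 RNA-sequencing libraries of the study. All mice were males aged 10 weeks that had lived at thermoneutrality (30 °C) for 2 weeks; the 8 libraries come from tissue taken after the move to 4 °C, and 6 further libraries (3 WT and 3 AdC3KO) come from mice left at 30 °C. The labels call the knockout adipocyte-specific. The Cre driver, the deleted exons, the strain background and whether the WT mice were littermates or carried any part of the knockout alleles were not stated in those labels or protocols. Nothing in the labels says outright that the libraries stem from separate animals, and the p-values therefore measure only how far these samples scatter, which may be technical.

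Brown fat burns lipid to make heat. In cold, noradrenaline from sympathetic nerves acts on β-adrenergic receptors of brown adipocytes, cyclic AMP rises, lipid droplets are broken down by lipases, and the fatty acids fuel and activate the uncoupling protein UCP1 in mitochondria. CLSTN3B is a mammal-specific protein made in brown adipocytes from an internal start in the gene of the synaptic adhesion protein calsyntenin 3 (Clstn3). It has been linked to the secretion of S100B, a protein that promotes sympathetic innervation of fat, and the series title links it to the size of lipid droplets and to thermogenesis.

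The 8 libraries held 20281389 to 25735725 gene counts in WT and 24893856 to 29026445 in AdC3KO, so that 3 of the 4 AdC3KO libraries were deeper than any WT library. Levels are in CPM, each gene's count scaled to a common library size of 1e6 with TMM factors. Adipocyte markers were present throughout: summed over 12 brown and general adipocyte markers, WT libraries held 37396 to 47158 CPM and AdC3KO libraries 39432 to 52662 CPM. General markers such as Lpl are part of this sum. Some libraries stood apart. WT 4 and AdC3KO 1 were high in interferon response genes, macrophage markers and lymphocyte markers, and AdC3KO 3, with a smaller signal in WT 2, held skeletal muscle transcripts. Without WT 4 and AdC3KO 1, 9 genes were called between the genotypes, among them all 8 found with every library. Without WT 2 and AdC3KO 3, 6 of the 8 remained.

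Of 15949 genes tested, 8 differed between the genotypes at 4 °C (edgeR quasi-likelihood test, adjusted p below 0.05; 0.0502% of the tested genes), 1 lower (Clstn3; 0.00627%) and 7 higher in AdC3KO (0.0439%). The 7 were Pex5, Kng1, Eif4a2, Zfp949 and 3 genes with no protein product named in the annotation, Gm44007, Gm11868 and Gm7049. The WT and AdC3KO libraries did not overlap for any of the 8, and they did not overlap for 362 of all tested genes (2.27%). A total of 765 genes (4.8%) had an unadjusted p below 0.05. At that threshold 350 were higher (2.19%) and 415 lower (2.6%). Fitted on the 8 libraries alone, 5 of the 8 genes passed, and Eif4a2, Zfp949 and Gm44007 did not. DESeq2 called 21 genes (0.132%), 14 of them higher (0.0878%) and 7 lower (0.0439%), and 8 of the 21 were those called by edgeR. The same contrast at 30 °C, in the other 6 libraries, called 7 genes (0.0439%), and 6 of the 8 cold calls were among them. The test of the genotype difference at 4 °C against that at 30 °C called 0 genes, with 349 (2.19%) at an unadjusted p below 0.05.

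**Figure D1:**
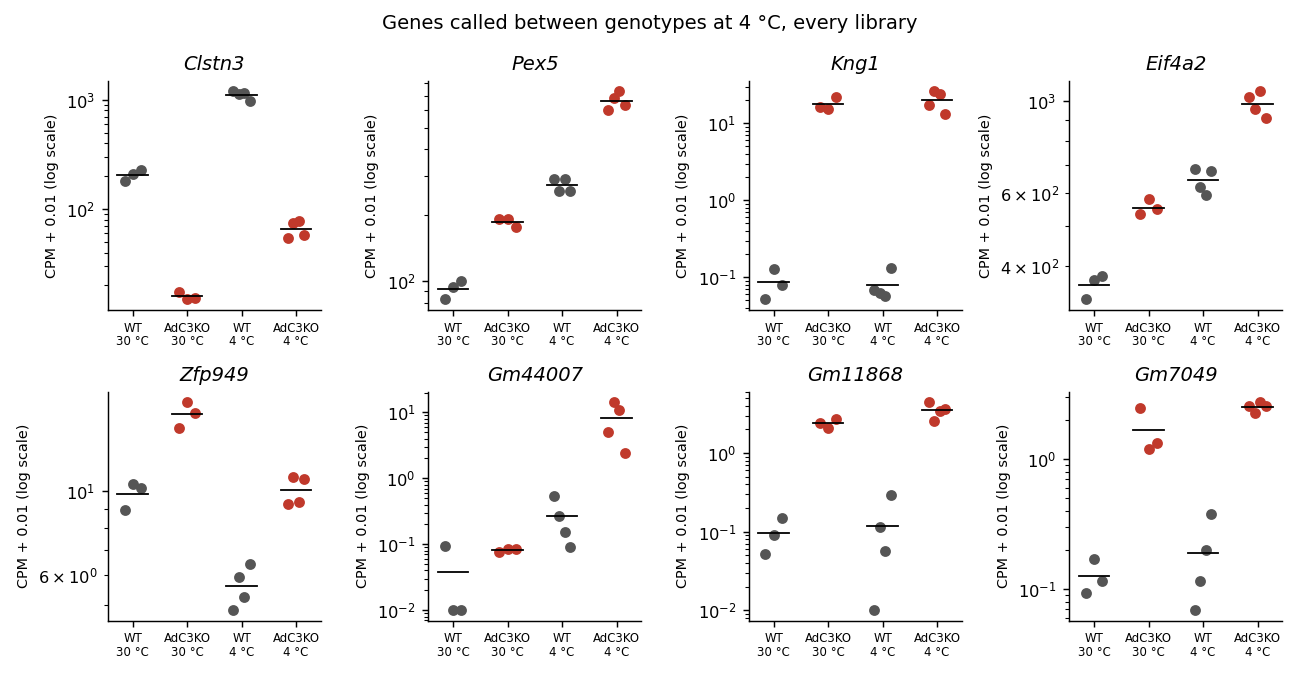
Level of each of the 8 called genes in every library (dots, CPM + 0.01 on a log axis) by genotype and temperature, with the group mean as a line; WT is grey and AdC3KO red. In the cold, Clstn3 is lower and the other 7 genes are higher, with no overlap between the genotypes, and Gm44007 is near 0 in both genotypes at 30 °C.

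Clstn3 (ENSMUSG00000008153, a protein-coding gene at 124430759 to 124464794 of chromosome 6 in GRCm38, minus strand) checks the labels. Its level was 1195, 1125, 1148 and 970 CPM in the 4 WT libraries in the cold and 53.8, 73.9, 77.9 and 57.6 CPM in the 4 AdC3KO libraries. No AdC3KO library came near a WT library, and the remaining signal was 16.9-fold lower on average (65.8 ± 11.9 against 1109.6 ± 97.4 CPM, SD, n = 4 each). That is a log2 fold change of −4.08 (SE 0.14, edgeR adjusted p = 2.87e-11; 95% interval −4.36 to −3.79). The counts are per gene, so reads of the CLSTN3B transcript and of full-length calsyntenin 3 are in the same value. In bulk tissue, fewer cells of a type and less RNA per cell cannot be told apart.

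The first start listed for Clstn3 by RefSeq carries the palindrome TGACGTCA, the letters of the cyclic AMP response element, at bases 250 to 257 of the 300-base window, and is shown because this gene carries the knockout and sits in a tissue driven by cyclic AMP. The first listed start of its neighbour Pex5 is shown beside it. The sequences are from RefSeq (GRCm38.p6), minus strand, at chr6:124464735-124465034 for Clstn3 and chr6:124415806-124416105 for Pex5, 5′ to 3′. Capitals mark TGACGTCA in Clstn3, and in Pex5 a match to CCCNNGGG (the core of the early B cell factor motif) and CGTCA, which is the half-site TGACG read on the other strand.
Clstn3 first listed start: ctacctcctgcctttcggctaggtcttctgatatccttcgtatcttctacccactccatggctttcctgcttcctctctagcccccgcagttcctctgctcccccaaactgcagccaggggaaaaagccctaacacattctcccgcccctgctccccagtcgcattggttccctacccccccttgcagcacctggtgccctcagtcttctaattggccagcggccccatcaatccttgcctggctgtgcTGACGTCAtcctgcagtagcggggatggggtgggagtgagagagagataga
Pex5 first listed start: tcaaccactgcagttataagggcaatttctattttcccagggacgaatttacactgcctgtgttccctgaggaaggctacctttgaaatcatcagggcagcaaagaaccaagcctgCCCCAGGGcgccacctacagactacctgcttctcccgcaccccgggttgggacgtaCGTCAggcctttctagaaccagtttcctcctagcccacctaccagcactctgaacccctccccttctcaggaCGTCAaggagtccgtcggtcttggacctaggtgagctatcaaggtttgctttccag
Motifs were searched on both strands. TGACGTCA, each copy of which holds the half-site TGACG on both strands, was in 1.79% of 32851 promoter windows of the same length, TGACG in 20.81%, CCCNNGGG in 13.67% and the nuclear receptor half-site AGGTCA in 16.26%. The second listed start of Clstn3 and the other 2 of Pex5 held none of the 4 motifs, and the internal start of CLSTN3B was not matched to a window. The first window of Eif4a2 held 1 TGACG and the window of Zfp949 held none of the 4 motifs. Windows were available for 4 of the 8 called genes (Clstn3, Pex5, Eif4a2 and Zfp949). A match is a description of the letters and says nothing on use of the site in these samples.

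The other calsyntenins and S100b were not called at 4 °C. Clstn1, a calsyntenin of neurons and other cells, was at 15.3, 17.6, 17.4 and 14.7 CPM in WT and 15.9, 17, 16.6 and 17.6 CPM in AdC3KO. Its log2 fold change was 0.05 with a 95% interval of −0.15 to 0.24. Clstn2 was below 2 CPM in every library, with a log2 fold change of 0.23 (−0.59 to 1.05). S100b, the partner named above, was at 61.2, 38.4, 71.6 and 52.2 CPM in WT and 50.3, 52.2, 55.9 and 73.6 CPM in AdC3KO, groups that overlapped. Its log2 fold change was 0.05 with a 95% interval of −0.38 to 0.49. Of 9 tested genes in the list of calsyntenins and S100 genes, Clstn3 alone was called.

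Beside Clstn3, the 4 nearest tested genes on one side had levels in the cold that were higher in each of the 4 AdC3KO libraries than in all WT libraries, and 2 of them, Pex5 and Gm44007, passed the edgeR test. Pex5, the receptor that carries enzymes with a C-terminal targeting signal into peroxisomes, lies next to Clstn3 in its direction of transcription, on the same minus strand (chromosome 6 from 124396816 to 124415067). It was at 294, 257, 291 and 256 CPM in WT and 604, 682, 731 and 634 CPM in AdC3KO, and every AdC3KO library was above every WT library. The mean was 2.41-fold higher (log2 fold change 1.27, SE 0.09, adjusted p = 1.09e-06; 95% interval 1.08 to 1.46). At 30 °C the log2 fold change was 1.01 (SE 0.10).

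Farther on the same strand lies Gm44007 (chromosome 6 from 124381972 to 124384160), a locus the annotation lists as to be experimentally verified. It was at 0.53, 0.262, 0.142 and 0.0815 CPM in WT and 5.03, 14.3, 10.8 and 2.44 CPM in AdC3KO. The AdC3KO libraries spread widely, from 2.44 in AdC3KO 4 to 14.3 in AdC3KO 2, and all were above WT. In counts, 747 against 19 over 4 libraries each gave a ratio of 33.1 (95% counting interval 21 to 55.2), an interval that covers counting error only. The log2 fold change reached 5.06 (SE 0.63, adjusted p = 0.00339). This call was lost without the 2 muscle-bearing libraries (adjusted p = 0.0715) and with limma-voom (0.446). At 30 °C the gene was at 0.0276 CPM in WT and 0.0712 CPM in AdC3KO, a difference that did not pass (log2 fold change 1.29, adjusted p = 1), and the difference between the temperatures did not pass either (interaction adjusted p = 0.9999).

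The noncoding gene Gm44006, on the plus strand beyond Gm44007, had 1 count in WT and 187 in AdC3KO in the cold, a ratio of 157 (95% counting interval 27.9 to 6242). It was at 1.6, 3.19, 3.13 and 0.253 CPM in AdC3KO, was called by DESeq2 (adjusted p = 0.0297) and not by edgeR (0.0961), and its edgeR adjusted p was 0.00158 without AdC3KO 4 but 0.337 to 0.77 without 1 of the WT libraries. Without AdC3KO 1, 2 or 3 it did not pass the filter on low counts. The noncoding gene 1700027F06Rik, next in line on the minus strand, had 3 counts in WT and 132 in AdC3KO (edgeR adjusted p = 0.658). Both had 0 counts in all 6 libraries at 30 °C. In all 3 of Gm44007, Gm44006 and 1700027F06Rik, AdC3KO 2 and AdC3KO 3 were the highest libraries and AdC3KO 4 the lowest of its group. Past them Cd163, a macrophage receptor gene, had a log2 fold change of −0.25 (adjusted p = 0.963), and on the far side of Clstn3 the complement gene C1rl had −0.33 (SE 0.22).

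On chromosome 16 the genotypes differed in a cluster of genes around the kininogens. Kininogens are the precursors from which kallikreins release bradykinin. Kng1 (chromosome 16 from 23057865 to 23082078) was at 0.0589, 0.0524, 0.0475 and 0.122 CPM in WT and 17.3, 25.9, 23.8 and 13.2 CPM in AdC3KO. WT libraries were close to 0, and again AdC3KO 2 and AdC3KO 3 were the highest and AdC3KO 4 the lowest of its group. The counts were 6 and 1862, a ratio of 261 (95% counting interval 119.6 to 712); the adjusted p was 7.45e-10. At 30 °C it was at 16.2, 15.4 and 22.1 CPM in AdC3KO. The paralogue Kng2, on the minus strand beside it, was at 148, 119.5, 147 and 115 CPM in WT and 193, 218, 179.8 and 176 CPM in AdC3KO. Its groups did not overlap, but it did not pass (log2 fold change 0.53, SE 0.15, adjusted p = 0.726). Reads can be shared between the 2 paralogues where their sequences are alike. The treatment of multi-mapped reads is not stated in the labels.

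Eif4a2, an RNA helicase that unwinds messenger RNA at the start of translation, lies beyond Kng1 (chromosome 16 from 23107444 to 23114136). It was at 688, 620.2, 594 and 679 CPM in WT and 1024, 955, 1056 and 911 CPM in AdC3KO, with no overlap and little spread in either group. The log2 fold change came to 0.61 (SE 0.08, adjusted p = 0.00446), and 0.62 at 30 °C. The call was lost without WT 2 and AdC3KO 3 (adjusted p = 0.0715), with the fold change at 0.58. Rfc4, a subunit of the clamp loader of DNA replication, overlaps the end of Eif4a2 on the opposite strand; the labels do not state a strand setting, so reads of the overlap cannot be assigned. Rfc4 was at 5.07, 3.25, 3.61 and 4.08 CPM in WT and 6.64, 6.29, 5.28 and 7.54 CPM in AdC3KO (a log2 difference of 0.69 with SE 0.17; DESeq2 adjusted p = 0.0381, edgeR adjusted p = 0.5). The processed pseudogene Gm8134, between Kng1 and Eif4a2, had 0 counts in WT and 37 in AdC3KO, at least 10.4-fold higher when 3 counts over the 4 WT libraries stand in for 0.

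The adipokine gene Adipoq, on the other side of Eif4a2 from Kng1, was not called. It was at 873, 505, 634 and 584 CPM in WT and 598, 701, 933 and 544 CPM in AdC3KO. The groups overlapped (log2 fold change 0.10, SE 0.19, 95% interval −0.31 to 0.51). Within 500 kb of Eif4a2, 15 other genes were tested, Kng1 among them. At an unadjusted p below 0.05, 7 of them were higher and 0 lower, against 2.19% and 2.6% of all tested genes.

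**Figure D2:**
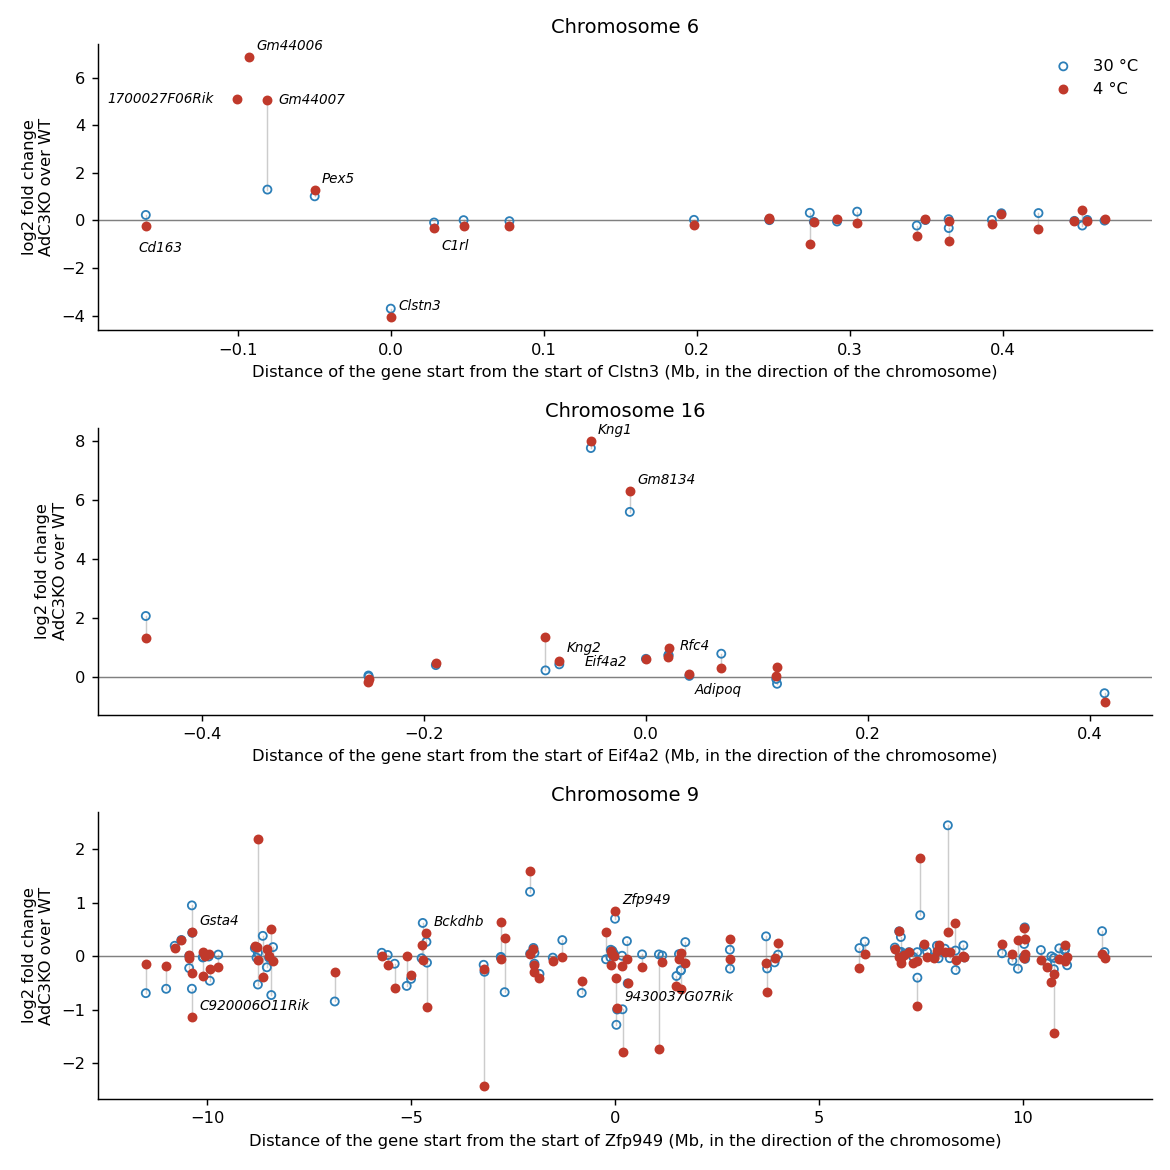
log2 fold change of AdC3KO over WT for each tested gene by the distance of its start (Mb) from the start of Clstn3, Eif4a2 or Zfp949; filled red dots are 4 °C and open blue circles 30 °C, joined for the same gene, and genes at 0 in both groups at 30 °C have no circle. On chromosome 6 the differences above 2 at 4 °C are at Clstn3 and on one side of it, and on chromosome 16 at Kng1 and Gm8134, while Adipoq stays near 0 at both temperatures. Genes that were not called, such as Gm6493 (1.36) and Dgkg (1.31) on chromosome 16 and Gm48832 (−2.42) and 4930429F24Rik (2.20) on chromosome 9, also differ by more than Eif4a2.

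On chromosome 9 many small differences lay together. Zfp949, a zinc finger gene (chromosome 9 from 88548020 to 88571061), was at 4.83, 5.92, 5.22 and 6.4 CPM in WT and 9.25, 10.9, 9.33 and 10.8 CPM in AdC3KO. Every AdC3KO library exceeded every WT library (log2 fold change 0.84, SE 0.12, adjusted p = 0.00781), and at 30 °C the log2 fold change was 0.70. The call was lost without WT 3 (adjusted p = 0.0564). The noncoding gene 9430037G07Rik, next to it, went the other way, with 3.48, 3.2, 2.37 and 2.77 CPM in WT and 1.23, 1.29, 1.61 and 1.9 CPM in AdC3KO (log2 fold change −0.97, DESeq2 adjusted p = 0.0432, edgeR adjusted p = 0.328).

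Bckdhb, a subunit of the enzyme complex that commits branched-chain amino acids to breakdown, was at 141, 114, 129.8 and 130.1 CPM in WT and 159, 168, 196 and 170.4 CPM in AdC3KO. The groups did not overlap, DESeq2 called it (log2 fold change 0.43 in edgeR, DESeq2 adjusted p = 0.0018) and edgeR did not (adjusted p = 0.152). C920006O11Rik, a noncoding gene upstream of Gsta4, was at 1.24, 1.62, 1.85 and 1.63 CPM in WT and 0.709, 0.904, 0.635 and 0.632 CPM in AdC3KO (edgeR adjusted p = 0.0519, DESeq2 0.0148). It sat just outside the edgeR threshold; leaving out WT 1 gave 0.0334, and leaving out any other library gave 0.054 to 0.277. Gsta4, a glutathione transferase that clears lipid aldehydes, had a log2 fold change of 0.46 (SE 0.12, adjusted p = 0.676), and the fatty acid elongase Elovl5 0.30 (SE 0.11, adjusted p = 0.94), with overlapping groups.

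In windows of 10 Mb picked after their values were seen, 8 of 42 tested genes (19.0%) between 80 and 90 Mb of chromosome 9 had an unadjusted p below 0.05, as had 12 of 68 (17.6%) between 20 and 30 Mb of chromosome 16 and 15 of 138 (10.9%) between 120 and 130 Mb of chromosome 6, against 4.8% of all tested genes. Windows without an edgeR call also stood above that share, 7 of 38 genes (18.4%) between 20 and 30 Mb of chromosome 6, far from Clstn3, and on chromosome 9 10 of 68 (14.7%) between 70 and 80 Mb and 10 of 83 between 60 and 70 Mb. Windows of the other chromosomes were not tabulated. By chromosome the share was 7.84% on chromosome 9, 6.59% on chromosome 6, 6.02% on chromosome 19, which holds no called gene, and 5.85% on chromosome 16, and it was 3.21% to 5.07% on each of the others.

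Gm11868 and Gm7049 lie on chromosomes 4 and 13, but are processed pseudogenes, copies of the messenger RNA of Cyb5r4 and Me1, both of which are on chromosome 9. Over the aligned transcripts Gm11868 is 97.98% identical to Cyb5r4 and Gm7049 is 98.43% identical to Me1 and reads can be shared between a copy and its parent. Stretches of 120 bases that are coding in the parent are printed from GENCODE M21 transcripts, 5′ to 3′, with the bases that differ between copy and parent in capitals.
Gm11868: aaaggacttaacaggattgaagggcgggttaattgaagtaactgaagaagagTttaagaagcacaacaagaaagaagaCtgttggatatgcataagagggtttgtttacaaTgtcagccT
Cyb5r4: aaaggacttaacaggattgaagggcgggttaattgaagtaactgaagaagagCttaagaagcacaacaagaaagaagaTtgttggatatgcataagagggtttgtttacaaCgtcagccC
Gm7049: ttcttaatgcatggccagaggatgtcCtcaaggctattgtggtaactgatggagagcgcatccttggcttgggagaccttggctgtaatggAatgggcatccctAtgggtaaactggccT
Me1: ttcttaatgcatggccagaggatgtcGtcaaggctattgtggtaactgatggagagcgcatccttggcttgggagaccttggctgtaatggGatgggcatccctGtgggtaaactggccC
Each stretch holds 4 differences and was picked as a gap-free coding stretch of this length with the most differences. Over the whole alignment 23 of 1485 columns were mismatches for Gm11868 and 21 of 1716 for Gm7049. Reads of usual length from either gene thus share most of their bases. Gm11868 (chromosome 4 from 18844202 to 18845679) was at 0, 0.105, 0.0475 and 0.285 CPM in WT and 4.44, 2.54, 3.42 and 3.67 CPM in AdC3KO. The counts were 10 and 335, a ratio of 28.2 (95% counting interval 15.1 to 59.3) (adjusted p = 0.000103).

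Its parent Cyb5r4, a cytochrome b5 reductase, was at 43.9, 42.3, 39.8 and 43.2 CPM in WT and 39.7, 39.6, 39 and 40.9 CPM in AdC3KO, with a log2 fold change of −0.09 (95% interval −0.25 to 0.07). Gm7049 (chromosome 13 from 62813076 to 62814787) was at 0.0589, 0.105, 0.19 and 0.367 CPM in WT and 2.54, 2.24, 2.74 and 2.57 CPM in AdC3KO, 16 against 237 counts, a ratio of 12.5 (95% counting interval 7.51 to 22.1) (adjusted p = 0.000491). Me1, the cytosolic malic enzyme that supplies NADPH for fatty acid synthesis, was at 382, 253, 345 and 205 CPM in WT and 212, 231, 211 and 237 CPM in AdC3KO. WT 1 and WT 3 were high, and the log2 fold change was −0.41 (95% interval −0.88 to 0.06, adjusted p = 0.963). The counts of a copy and of its parent cannot be told apart where their sequences agree, and neither value is certain.

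Oaz2-ps, on chromosome 3, is another such copy. Its parent is Oaz2, the ornithine decarboxylase antizyme gene on chromosome 9, with 93.12% identity over the aligned columns, gaps counted. It had 7 counts in WT and 58 in AdC3KO, a ratio of 6.97 (95% counting interval 3.17 to 18.1). It was not called (edgeR adjusted p = 0.152, and 1 at 30 °C), and was picked for description after its values were seen.

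A total of 27 genes had an unadjusted p below 0.05 in the same direction at 4 °C and at 30 °C, which share no libraries. They are 3.53% of the 765 at 4 °C (4.8% of the tested genes) and 12.7% of the 212 at 30 °C (1.33%). Another 4 genes passed in opposite directions. Of the 27, 16 lay on chromosome 9 and 23 on chromosomes 6, 9 and 16, which hold 14.1% of the tested genes. The other 4 were the 3 pseudogenes with a parent on chromosome 9 and Golga7b on chromosome 19, which was at −1.78 (adjusted p = 0.963) and under 1 CPM. Among those on chromosome 9, Ankdd1a, called at 30 °C (log2 fold change 3.67), had 1.79 at 4 °C (adjusted p = 0.963) with 17 against 4 counts, and Ube2cbp had 1.60 at 4 °C and 1.21 at 30 °C. Golga7b, Ankdd1a and Ube2cbp were picked after their values were seen.

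**Figure D3:**
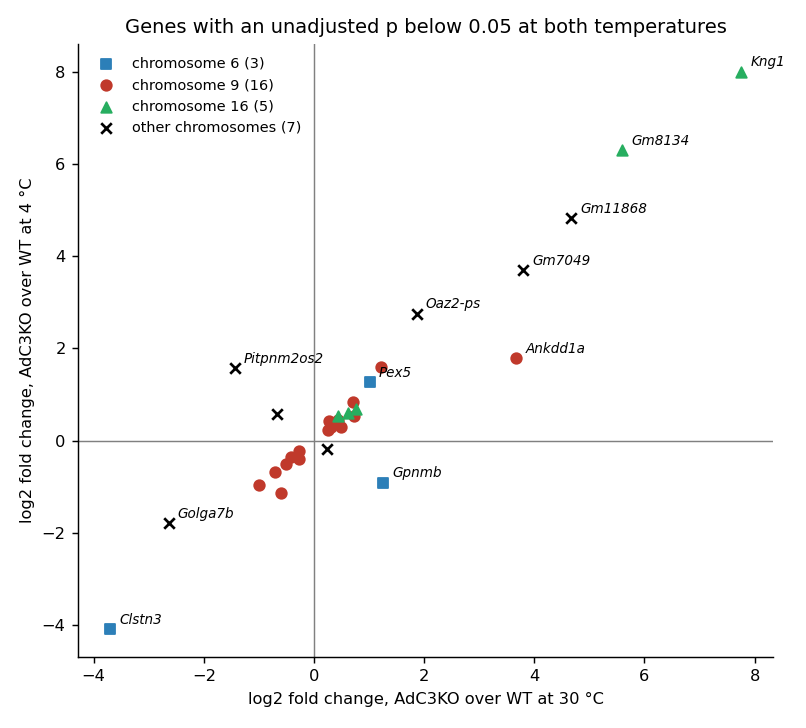
log2 fold change at 4 °C (vertical) against 30 °C (horizontal) for the 31 genes with an unadjusted p below 0.05 at both temperatures, by chromosome. The points on chromosomes 9 and 16 all lie in the quadrants of equal sign, and 4 genes, Gpnmb among them, lie in the quadrants of opposite sign.

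DESeq2 alone called 13 genes, 7 higher and 6 lower. For all 13 the groups at 4 °C did not overlap, beside 2.27% of all tested genes. A call made on these same libraries favours such genes. Of these 13, 5 had an unadjusted p below 0.05 in the same direction at 30 °C (edgeR), all on chromosomes 9 and 16. Over all tested genes 1.33% had such a p at 30 °C, in either direction. By position, 10 of the 13 lie on chromosomes 6, 9 and 16, which hold 14.1% of the tested genes, and 5 of them on chromosome 6. Bckdhb and C920006O11Rik, on chromosome 9, lie more than 500 kb from any gene called by edgeR. So do Lrrc52, Slc39a14, Clec2d, Ccnd2, Hpgds, Ttyh2 and Bpgm, the 7 described next. Of these 7, 4 (Clec2d, Ccnd2, Hpgds and Bpgm) are on chromosome 6, Clec2d and Ccnd2 in the window from 120 to 130 Mb. Lrrc52, an auxiliary subunit of potassium channels, was at 3.71, 5.61, 5.08 and 4.28 CPM in WT and 8.35, 16.1, 11.3 and 7.25 CPM in AdC3KO (a log2 difference of 1.20 with SE 0.26; DESeq2 adjusted p = 0.0148). Slc39a14, a zinc and iron importer, was at 85.5, 117, 104 and 83.7 CPM in WT and 131, 207, 157 and 122 CPM in AdC3KO (log2 fold change 0.66, DESeq2 adjusted p = 0.0432). Both were highest in AdC3KO 2 and next in AdC3KO 3.

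The lower ones included Clec2d, a C-type lectin gene, at 189, 125, 132 and 122 CPM in WT and 113, 79.1, 88.1 and 89.9 CPM in AdC3KO (log2 fold change −0.62, DESeq2 adjusted p = 0.0324). Ccnd2, a D-type cyclin of the cell cycle, was at 27.2, 21, 19.1 and 27 CPM in WT and 16.4, 15.5, 14.9 and 16.7 CPM in AdC3KO (log2 fold change −0.57, DESeq2 adjusted p = 0.0297). At 30 °C their log2 fold changes were −0.05 and −0.02. Hpgds, which makes prostaglandin D2 in immune and mast cells, had a log2 fold change of −1.34 and Ttyh2, a membrane channel-like protein, −0.78. Bpgm, which makes the red cell metabolite bisphosphoglycerate, was higher, at 0.51 (DESeq2 adjusted p = 0.0297). None of the 7 passed edgeR, where their adjusted p lay between 0.283 and 0.500, and none had an unadjusted p below 0.05 at 30 °C. The difference between the temperatures was not shown for any of them (edgeR interaction, adjusted p = 0.9999).

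Among genes that neither tool called, those with the lowest p whose groups did not overlap included Pdlim1, an actin-binding adaptor (log2 fold change 0.59, mean 30.8 CPM in WT and 46.5 CPM in AdC3KO). The growth factor Fgf9 (1.07, means 3.27 and 6.91 CPM) and Ankrd9 (0.66, means 175 and 276 CPM) were also among them. So was, lower, the matrix protein Smoc1 (−0.73, means 15.6 and 9.34 CPM). Ankrd9 was at 204, 352, 322 and 228 CPM in AdC3KO, with AdC3KO 2 and AdC3KO 3 again the highest. Fgf9 was at 1.65, 4.72, 3.47 and 3.26 CPM in WT and 5, 8.48, 5.82 and 8.35 CPM in AdC3KO, so that the groups nearly touched. Their adjusted p lay between 0.609 and 0.672 (edgeR).

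No gene of the heat-producing programme passed the test between genotypes in the cold. Ucp1, the uncoupling protein, was at 13879, 12803, 13039 and 11021 CPM in WT and 11772, 14364, 15736 and 13066 CPM in AdC3KO. The groups overlapped, and the log2 fold change was 0.11 with a 95% interval of −0.19 to 0.42. Dio2, the deiodinase that activates thyroid hormone, was at 2939, 3730.4, 3802 and 2906 CPM in WT and 3469, 4064, 3481 and 3453 CPM in AdC3KO (0.11, interval −0.19 to 0.42). Ppargc1a, the coactivator of mitochondrial genes, was at 674, 882, 1226 and 718 CPM in WT and 897, 1444, 1278 and 817 CPM in AdC3KO (0.34, interval −0.10 to 0.78). Elovl3, the elongase of very long chain fatty acids, had 0.38 (interval −0.11 to 0.87) and the hormone Fgf21 0.04 (interval −0.57 to 0.65).

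Of 25 thermogenic genes 0 were called and 2 had an unadjusted p below 0.05, beside 4.8% of all tested genes. These 2 were Cox8b (0.46, edgeR adjusted p = 0.963) and Cox7a1 (0.34, edgeR adjusted p = 0.963), the muscle-type subunits of cytochrome oxidase. The list ranged from −0.16 to 0.46 with a median of 0.11, beside −0.01 over all genes; the median was 0.049 without WT 4, and for 23 of 25 the 95% interval lay within a 2-fold change. Cox8b was at 876, 681, 690.4 and 643 CPM in WT and 726, 869.6, 1328 and 1059 CPM in AdC3KO, highest in AdC3KO 3, the library with skeletal muscle transcripts, and next in AdC3KO 4, which held few. The part of muscle RNA in this was not tested.

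Lipid droplet and lipolysis genes did not pass either. Cidea, which drives transfer of lipid between droplets, had a log2 fold change of 0.06 (95% interval −0.22 to 0.33). Its relative Cidec was at 1239.8, 713, 693 and 622 CPM in WT and 608, 627, 767 and 614 CPM in AdC3KO. WT 1 was far above the other 3, and the log2 fold change of −0.32 (interval −0.69 to 0.05) moved to −0.03 without it. The droplet coat proteins Plin1, Plin2 and Plin5 had −0.20 (interval −0.51 to 0.11), −0.11 (−0.37 to 0.15) and −0.24 (−0.53 to 0.04). Without WT 1 they were at −0.0089, −0.0042 and −0.087. Of 26 droplet genes 0 were called, the median was −0.02, and for 24 of 26 the interval lay within a 2-fold change. Plin3 alone had an unadjusted p below 0.05 (−0.20, adjusted p = 0.963).

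Among lipolysis genes Pnpla2, the first lipase of triglyceride breakdown, was at 2570.3, 1879, 2229 and 1843 CPM in WT and 1899.8, 2089, 2584 and 2051 CPM in AdC3KO (0.02, interval −0.24 to 0.28). Lipe, hormone-sensitive lipase, was at 943, 478, 598 and 579 CPM in WT and 526, 354, 465 and 504 CPM in AdC3KO (−0.49, adjusted p = 0.956). WT 1 was again the highest, and without it the log2 fold change was −0.23. The protein kinase A regulatory gene Prkar2b had −0.39, and −0.13 without WT 1. Adrb3, the β3-adrenergic receptor, was at 84.4, 114, 115 and 134 CPM in WT and 111, 31.3, 69.7 and 115 CPM in AdC3KO, with AdC3KO 2 low, and its interval (−1.18 to 0.29) was wide. Of 23 lipolysis genes 0 were called, and the median was −0.05.

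**Figure D4:**
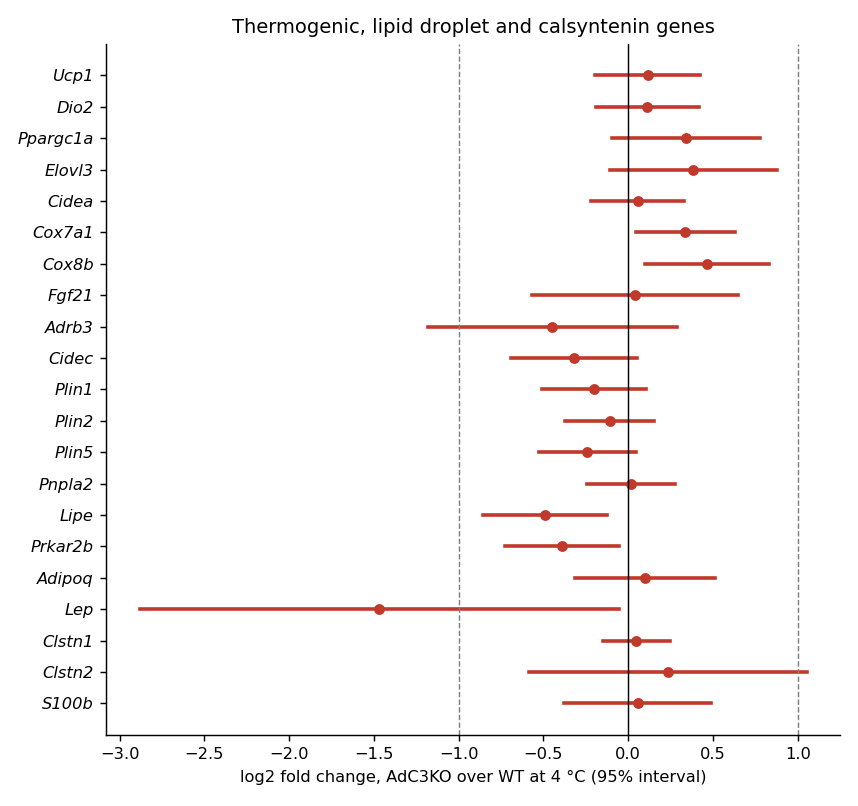
log2 fold change of AdC3KO over WT at 4 °C (dots) with its 95% interval (bars) for 21 thermogenic, droplet, lipolysis, adipokine and calsyntenin genes (Clstn3 and Plin3, whose intervals also leave out 0, are not drawn); dashed lines mark a 2-fold change either way. Of the intervals drawn, all but those of Lep, Adrb3 and Clstn2 lie inside the dashed lines, and those of Cox8b, Cox7a1, Lipe, Prkar2b and Lep leave out 0.

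Genes of mitochondrial respiration leaned one way by small amounts. Of 78 nuclear-encoded subunits of the respiratory chain and ATP synthase, 76 had a positive log2 fold change, beside 7738 of all 15949 genes. Their median was 0.16 (0.11 to 0.25 with 1 library left out), and 0.076 at the lowest over all alternatives of processing. Of these genes 0 were called, and 4 had an unadjusted p below 0.05, beside 4.8% of all tested genes. The intervals of all 78 lay within a 2-fold change, and Atp5b, the catalytic subunit of ATP synthase, had 0.07 (SE 0.10). Summed, they were at 49809, 41792, 45416 and 42733 CPM in WT and 44414, 47063, 55770.3 and 50838 CPM in AdC3KO. AdC3KO 3 and AdC3KO 4 were the highest, and the groups overlapped. At 30 °C the median was −0.01.

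Genes that make fatty acids leaned the other way. Of 21 de novo lipogenesis genes 3 had a positive log2 fold change, beside 7738 of all 15949 genes. The median of the 21 was −0.32 (−0.18 without WT 3), and 0 were called. The fatty acid synthase gene Fasn was at 875, 2209, 2384 and 1013 CPM in WT and 1264, 636, 613 and 2074 CPM in AdC3KO (−0.50, SE 0.55), and the desaturase Scd1 had −0.35 (SE 0.43). Without WT 3 Scd1 was at −0.0035. The spread within each genotype was larger than the difference. The peroxisomal genes other than Pex5 were not called. Of 21 import and biogenesis genes, Pex5 alone was called and the median was −0.06 (0.04 without WT 1), and of 32 peroxisomal enzymes 0 were called. Ehhadh, an enzyme of peroxisomal β-oxidation, had −0.67 (SE 0.44) and Ech1 0.12 (SE 0.10).

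Of 27 cyclic AMP and immediate early genes 0 were called and 3 were higher at an unadjusted p below 0.05, beside 2.19% of all tested genes. Fosb, a subunit of the transcription factor AP-1 that is induced within minutes, was at 1.71, 1.68, 2.42 and 2.28 CPM in WT and 2.68, 4.52, 7.82 and 9.61 CPM in AdC3KO. The groups did not overlap, AdC3KO 3 and AdC3KO 4 were highest, and the gene did not pass (log2 fold change 1.60, SE 0.43, adjusted p = 0.676). The nuclear receptor Nr4a2 was at 20.3, 40.8, 44.2 and 37.8 CPM in WT and 38.8, 82, 67.1 and 47.8 CPM in AdC3KO (0.72, adjusted p = 0.94), with overlapping groups. Cebpa, a master factor of adipocyte differentiation, was lower in each AdC3KO library (111, 68, 107 and 115 CPM) than in each WT library (169.7, 123, 125 and 149 CPM) and was not called (log2 fold change −0.50, adjusted p = 0.791).

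Of 13 tested white adipocyte markers 0 were called, and 4 were lower at an unadjusted p below 0.05, beside 2.6% of all tested genes. A positive log2 fold change was seen for 5 of the 13, up to 0.38, beside 7738 of all 15949 genes. Sncg, which encodes γ-synuclein, was at 22.3, 16.3, 19.5 and 29.3 CPM in WT and 15.7, 4.05, 8.75 and 13.3 CPM in AdC3KO, without overlap (−1.06, SE 0.34). Nnat, an imprinted membrane protein gene, had −1.04 and −0.62 without WT 1. Lep, the hormone leptin, was at 3.77, 1.83, 3.13 and 2.41 CPM in WT and 1.86, 0.172, 0.684 and 1.14 CPM in AdC3KO (−1.47, interval −2.88 to −0.06). At these low levels AdC3KO 1 overlapped WT 2. The median of the list was −0.47, and −0.19 without AdC3KO 2; their summed level was 1819.6 to 2124 CPM in WT and 2051 to 2575 CPM in AdC3KO, so that the median and the sum point opposite ways.

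Summed levels in 4 lists, markers of other cells and interferon response genes, moved with single libraries. The 25 interferon response genes summed to 272, 426, 348 and 2496 CPM in WT and 1084, 575, 457 and 284 CPM in AdC3KO. Their median log2 fold change of −0.88 turned to 0.76 without WT 4. The 16 macrophage markers summed to 480.3, 466, 483 and 1063 CPM in WT and 677, 386, 397 and 373 CPM in AdC3KO. Of these 16, 0 had a positive log2 fold change, beside 7738 of all 15949 genes. Their median was −0.41 and stayed negative with 1 library left out (−0.61 to −0.09). Lyz2 was at −0.45 (SE 0.37), and at −0.03 without WT 4. The 15 T, B and NK cell markers summed to 3.06, 6.76, 5.46 and 47.5 CPM in WT and 18.7, 4.48, 4.98 and 3.84 CPM in AdC3KO, and their median of −1.15 turned to 0.40 without WT 4. The 19 skeletal muscle markers summed to 66.8, 111, 56.7 and 55 CPM in WT and 54.5, 50.4, 638 and 59.3 CPM in AdC3KO, and their median of 3.00 turned to −1.57 without AdC3KO 3. In each of these 4 lists 0 genes were called, and 0 of the tested members were at 0 counts in all 8 libraries. Endothelial markers had a median of 0.07 and fibroblast genes −0.16. Their part in the genotype differences was not tested.

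**Figure D5:**
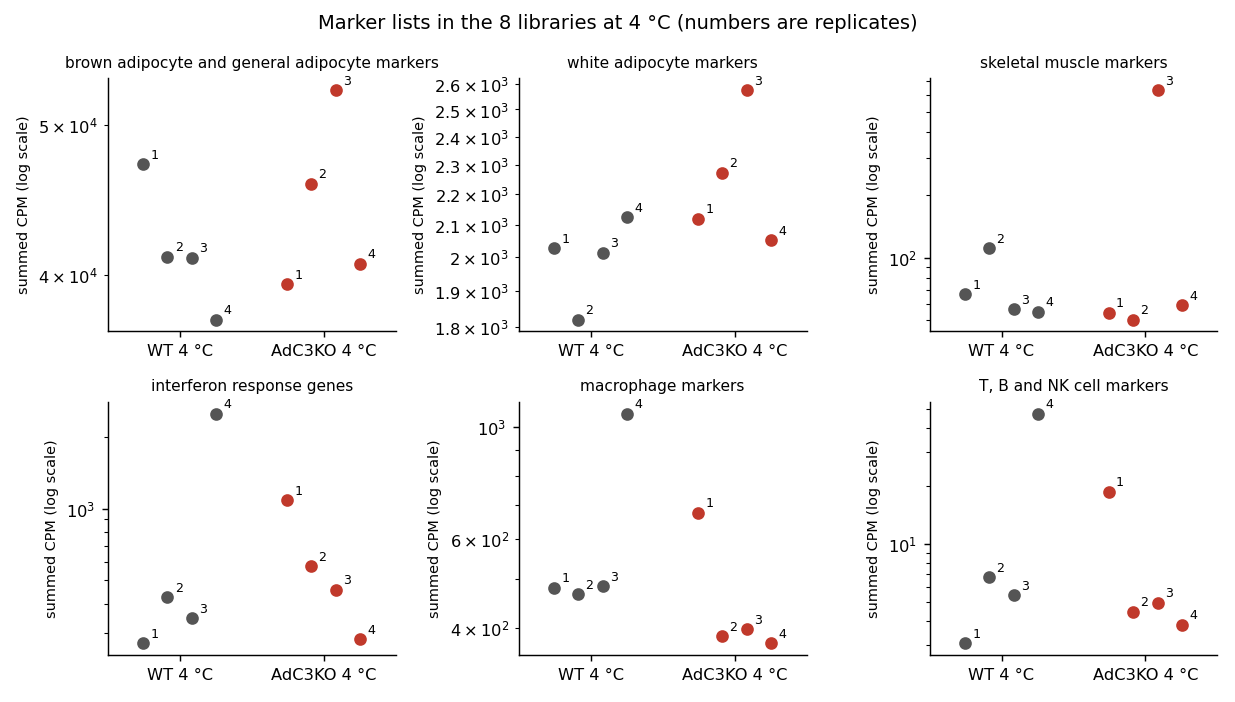
Summed CPM (log axes) of 6 marker lists in the 8 libraries at 4 °C; each dot is 1 library and the number beside it its replicate. WT 4 and AdC3KO 1 stand above the rest for interferon, macrophage and lymphocyte genes, AdC3KO 3 for skeletal muscle, and the brown and general adipocyte markers of the 2 genotypes overlap.

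How narrowly a difference was bounded depended on the level. Among genes of 100 CPM or more, the 95% interval of the log2 fold change reached a median of 0.21 to either side, and it lay within a 2-fold change for 98.3% of 1736 genes. The share was 96.7% of 6030 genes between 10 and 100 CPM, 77.5% of 4593 genes between 1 and 10 CPM and 430 of 3590 genes below 1 CPM. For most genes under 1 CPM a 2-fold difference was thus not excluded. The intervals do not show which differences would pass the test after adjustment. Zdhhc14 (7.67 CPM in WT and 15.1 CPM in AdC3KO) and Sncg (21.9 and 10.5 CPM) differed by about 2-fold and were not called.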

How the data were processed

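RNA from BAT was sequenced in 14 libraries prepared with the NEBNext Ultra II RNA kit, per the labels' protocols. Reads were trimmed by the authors with Trimmomatic, aligned to GRCm38/mm10 with STAR and counted per gene with HTSeq, per the submitters' processing notes; tool versions and the annotation release are not stated there. The deposited values are raw whole-number counts of 55471 genes. The table also holds 5 summary rows that name no gene, which were left out; reads outside genes came to 5.95% to 8.19% and ambiguous reads to 5.53% to 6.03% of a library. Symbols came from GENCODE M21 (99.41% of rows matched).

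Genes passing filterByExpr (minimum count 10) were fitted with edgeR 4.0.16 (R 4.3.3; TMM factors 0.822 to 1.21, robust quasi-likelihood) over all 14 libraries as 4 group means, and the genotype contrast at 4 °C was tested with Benjamini-Hochberg adjustment at 0.05 over 15949 genes. SE is the absolute log2 fold change over the root of F. The common biological coefficient of variation was 0.200. DESeq2 1.42.0, limma 3.58.1 voom, other scalings and filters, the 8 libraries alone, replicate blocks and left-out libraries were alternatives. The step was also run on simulated libraries drawn at the fitted spread. They held none of the outlying libraries described above, and the outcome is not given here. Ratios of low counts carry exact 95% intervals, and a floor of 3 counts stands for 0.

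Named genes are the called genes, the DESeq2-only calls, the 10 coding genes of lowest p in each direction whose groups did not overlap and reached 5 CPM, 15 fat genes, members of 29 lists and genes within 500 kb of a call. The members, lists and rules were chosen with earlier results of these data known.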

Additional observations from a re-analysis of the deposited data

Results flagged for a closer look

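Each result below has 1 library far from the other 3 of its group (the gap to the nearest over the range of the group exceeds Dixon's 95% critical value). A group of 4 meets this by chance about 1 time in 20. The groups examined were 160 for genes and 24 for lists, with each gene or list counted once per genotype. The values are CPM at 4 °C.

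Among genes high in 1 WT library, WT 1 was at 189 for Clec2d (the others 122 to 132), 1239.8 for Cidec (622 to 713), 61.4 for Nnat (28.4 at most), 0.0589 for Gm44006 and 0.177 for 1700027F06Rik (the others at 0 for both). WT 4 was at 0.122 for Kng1 and WT 2 at 15.5 for Myh4, a fast myosin of skeletal muscle. In AdC3KO, library 2 was highest for Dio2 (4064) and Clstn2 (1.85) and lowest for Cebpa (68.0, the others 107 to 115). AdC3KO 3 was highest for Cidec (767), Myh4 (141) and Des (149), the intermediate filament of muscle cells, and listed at 0 for Golga7b.

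Among the lists, WT 4 was highest in macrophage markers (summed CPM 1063), T, B and NK cell markers (47.5) and interferon response genes (2496). AdC3KO 1 was highest in macrophage markers (677) and T, B and NK cell markers (18.7) and lowest in red blood cell transcripts (499.5). AdC3KO 3 was highest in skeletal muscle markers (638).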

How the results depend on the processing

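The count of 8 genes became 21 with DESeq2, 5 in the 8 libraries alone and 2, both pseudogenes, when all genes of chromosomes 6, 9 and 16 were left out; it was 7 to 9 when each library was left out in turn, 8 with limma-voom (7 of them shared), upper-quartile or relative log expression scaling, 12 without a filter on low counts and 6 with a filter at 5 CPM. Replicate numbers showed no clear pairing of the samples, though so few pairs cannot exclude one. Libraries of the same title number deviated together with r of −0.34 to 0.03, and of the same description number with r of 0.07 to 0.11. The highest r, 0.541, was between WT 4 and AdC3KO 1, which share neither number. WT 4 and AdC3KO 1 have no partner by description number, so they added nothing to the genotype contrast under that block. With a replicate block by title number 3 genes were called, and by description number 6; the cause was not tested. Clstn3, Kng1 and Pex5 were called under every alternative that tested them. Eif4a2 and Zfp949 were lost in the 8 libraries alone (adjusted p = 0.0657 and 0.208) and under both blocks, and Gm44007 was lost in the 8 libraries alone (0.143). The title block also lost Gm44007 (0.0594), Gm11868 (0.125) and Gm7049 (0.106). No called gene changed sign; of the uncalled genes named, Adipoq, Clstn2, Fgf21, Myh4, Pnpla2 and S100b did with 1 library left out. Depth limits what genes under 1 CPM can show.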

Other observations

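Some genes of other cells and secreted factors had an unadjusted p below 0.05 without passing the test. Des, an intermediate filament of smooth and skeletal muscle, was at 76.7, 85.2, 79.9 and 79.5 CPM in WT and 91.8, 98.3, 149 and 96.6 CPM in AdC3KO, with AdC3KO 3 the highest (log2 fold change 0.44, edgeR adjusted p = 0.88). Nrtn, which encodes the neurotrophic factor neurturin, was at 1.94, 1.62, 2.42 and 2.53 CPM in WT and 2.72, 3.36, 4.11 and 2.7 CPM in AdC3KO, without overlap (log2 fold change 0.59, adjusted p = 0.963, edgeR). Pltp, the phospholipid transfer protein of plasma, was at 15.7, 20.7, 26 and 29 CPM in WT and 17.5, 13.2, 13.7 and 18 CPM in AdC3KO (log2 fold change −0.55, adjusted p = 0.791, edgeR). Zdhhc14, a palmitoyltransferase gene, was at 3.83, 9.96, 8.88 and 8.03 CPM in WT and 11.3, 20.5, 16.6 and 11.9 CPM in AdC3KO, without overlap (log2 fold change 0.97, adjusted p = 0.672, edgeR), and at 30 °C its log2 fold change was −0.07. Of the genes that passed an unadjusted p of 0.05 in opposite directions at the 2 temperatures, Gpnmb, a glycoprotein of macrophages, had −0.91 at 4 °C and 1.26 at 30 °C; it was picked after its values were seen.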
